A study of Mus musculus with 6 samples.

Results

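A set of genes of extracellular nucleotide signalling were followed in the mouse macrophage-like cell line RAW 264.7, in cells with a knockout of Apobec1 (KO) and in wild-type cells (WT). They were P2rx4 and P2rx7, P2ry2, P2ry6, P2ry12 and P2ry14, Adora2a and Adora2b, Entpd1 and Panx1, taken by name from the rows of the deposited expression table: 10 of 24848 listed genes. RNA was prepared from 3 KO and 3 WT cultures, each on its own plate, and sequenced, in paired-end reads, from libraries made with an mRNA kit. The same growth medium is given for all 6 cultures, with no treatment named. APOBEC1 is a cytidine deaminase that edits RNA, and the libraries served as a comparison for calls of such editing from Sanger traces. The table used here holds gene levels only. The method behind the knockout and the number of clones are not stated, so the genotype cannot be told apart from any other difference between these cell populations.

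Cells release ATP and UTP when they are stressed, activated or damaged, in part through channels formed by pannexin 1. ATP opens P2X receptors, which are cation channels, and ATP, UTP, UDP and UDP-sugars act on P2Y receptors, which couple to G proteins. CD39, encoded by Entpd1, removes phosphates from ATP and ADP at the cell surface and leaves AMP, which CD73 turns into adenosine, the ligand of the receptors encoded by Adora2a and Adora2b. In macrophages this system is best known for the release of interleukin-1 beta after ATP opens P2X7, and for the damping of inflammation by adenosine.

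Of the 10 genes, 6 were expressed well enough to be tested (at least 1 CPM, reads per 1000000 assigned to genes, in at least 3 of the 6 libraries), and 5 of these differed between the genotypes. P2rx7 was 3.66-fold higher in KO and Panx1 2.00-fold higher. P2ry2 was 1.57-fold and P2ry6 1.34-fold higher, while Entpd1 was 4.35-fold lower. P2rx4 did not pass the test. As background, 30.4% of the 10614 genes tested passed, with 13.5% higher and 16.9% lower in KO. Of the 4 genes that were not tested, Adora2b was detected at a low level, Adora2a gave 1 read in all, and P2ry12 and P2ry14 are listed at 0. The tests are those of limma on log2(CPM + 0.5) with Benjamini-Hochberg adjustment over all tested genes, called at an adjusted p under 0.05. Log2 fold changes (KO over WT) are on that scale, where low genes show less than their full change, and are given ± SE. Folds are ratios of mean CPM.

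The libraries held 59768682 to 70411383 reads in KO and 50493447 to 67392191 in WT, recovered from the table as whole reads. Pearson correlations across tested genes were 0.996 to 0.998 within KO, 0.988 to 0.996 within WT and 0.969 to 0.978 between them. Apobec1 itself stood at 346.8 ± 12.5 CPM in KO and 399.8 ± 29.3 CPM in WT (SD, n = 3 each) and missed the threshold (limma adjusted p = 0.0663), so its transcript level does not check the labels. The ribosomal precursor Rn45s took 0.542% to 1.40% of the reads in KO and 0.381% to 2.75% in WT. All 8 macrophage markers looked at, among them Csf1r and Lyz2, were above the minimum, with a summed level of 3493 to 3845 CPM in KO and 3156 to 3253 CPM in WT. Of the defining markers of other cells, Ly6g, Mpo, Cd3e, Col1a1 and Mcpt4 are listed at 0 in all libraries. The summed level of 6 osteoclast markers, carried by the cathepsin K gene Ctsk, was 53.2 to 58.6 CPM in KO and 361 to 369.8 CPM in WT. The other 5 were under the minimum. Summed levels of 6 neutrophil markers, led by S100a8, were 3.15 to 4.65 CPM in KO and 0.873 to 1.09 CPM in WT. Those of 5 dendritic cell markers, led by Zbtb46, were 2.18 to 2.64 CPM in KO and 4.40 to 5.28 CPM in WT. For 4 T cell markers, led by Lck, the sums were 6.31 to 7.21 CPM in KO and 3.50 to 4.75 CPM in WT. In each of these lists the leading gene was the only 1 tested. Markers of mast cells, led by Cpa3, summed to 0.0167 to 0.0710 CPM in KO and 0.257 to 0.386 CPM in WT, and those of B cells to 0.1004 to 0.156 CPM in KO and 0.257 to 0.317 CPM in WT, with none of either list reaching the minimum. The part of these differences in the results below was not tested, and fewer cells of a type cannot be told apart from less RNA per cell. P-values measure the spread between these plates.

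Promoter sequences are shown for the receptor and channel genes that moved most, for Entpd1, and for P2rx4, the neighbour of P2rx7 that was not called. Sequences come from RefSeq on GRCm38.p6 (mm10) and run 5′ to 3′ from 250 bases before the annotated start to 50 bases after it. Of the 10 genes, 8 matched the table, with 14 windows; for genes with several starts, the first listed is printed.
P2rx7, chr5:122643677-122643976, plus strand: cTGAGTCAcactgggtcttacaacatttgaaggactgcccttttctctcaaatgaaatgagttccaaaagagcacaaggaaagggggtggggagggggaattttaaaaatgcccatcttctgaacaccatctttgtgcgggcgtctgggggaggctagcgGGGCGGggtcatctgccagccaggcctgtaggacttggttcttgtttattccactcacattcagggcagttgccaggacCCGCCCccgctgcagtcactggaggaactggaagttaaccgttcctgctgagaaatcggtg
P2rx4, chr5:122707294-122707593, plus strand: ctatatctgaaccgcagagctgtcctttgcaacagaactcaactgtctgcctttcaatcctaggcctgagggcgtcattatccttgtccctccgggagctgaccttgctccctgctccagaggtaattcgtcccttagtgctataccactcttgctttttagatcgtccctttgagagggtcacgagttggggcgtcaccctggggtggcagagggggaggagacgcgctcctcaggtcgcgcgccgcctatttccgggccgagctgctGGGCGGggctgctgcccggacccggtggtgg
P2ry2, chr7:101012004-101012303, minus strand: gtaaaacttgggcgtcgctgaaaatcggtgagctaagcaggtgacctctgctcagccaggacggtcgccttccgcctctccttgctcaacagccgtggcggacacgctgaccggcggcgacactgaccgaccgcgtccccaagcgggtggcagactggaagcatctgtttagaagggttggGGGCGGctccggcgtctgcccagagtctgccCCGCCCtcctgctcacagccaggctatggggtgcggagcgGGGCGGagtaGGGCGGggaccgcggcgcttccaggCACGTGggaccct
Panx1, chr9:15045429-15045728, minus strand: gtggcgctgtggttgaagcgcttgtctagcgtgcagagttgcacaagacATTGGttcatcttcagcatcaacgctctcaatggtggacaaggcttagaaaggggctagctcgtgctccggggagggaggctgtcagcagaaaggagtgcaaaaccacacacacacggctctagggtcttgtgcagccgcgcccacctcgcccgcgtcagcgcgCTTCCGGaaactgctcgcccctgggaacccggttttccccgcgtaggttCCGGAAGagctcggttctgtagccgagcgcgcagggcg
Entpd1, chr19:40612116-40612415, plus strand: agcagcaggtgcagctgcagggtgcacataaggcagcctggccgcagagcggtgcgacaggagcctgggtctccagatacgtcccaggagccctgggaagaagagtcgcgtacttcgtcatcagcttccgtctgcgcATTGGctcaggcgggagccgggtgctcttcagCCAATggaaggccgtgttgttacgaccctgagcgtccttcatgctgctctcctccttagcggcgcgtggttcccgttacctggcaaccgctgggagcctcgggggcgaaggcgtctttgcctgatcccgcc
Capitals mark matches, on either strand, to any of 8 motifs. The GC box was searched as GGGCGG, which binds factors of the Sp family. The CCAAT box was searched by the letters of its name, and the TATA box, which sets the start in some promoters, as TATAAA. For AP-1, the Fos and Jun factor, the letters were TGANTCA. For the E-box, read by basic helix-loop-helix factors, they were CACGTG. The ETS family element was taken as CCGGAAG. The element of PU.1, the ETS factor that macrophages depend on, was taken as AGGAAGT. Last came the half-element of the cAMP response, searched as TGACGT. In the windows printed here no match of one motif overlapped a match of another. The first P2rx7 window holds 2 GC boxes and an AP-1 element at its far end. The P2rx4 window holds 1 GC box, and the first P2ry2 window 4 GC boxes and an E-box. The Panx1 window holds 1 CCAAT box and 2 ETS elements, on opposite strands. The first Entpd1 window holds 2 CCAAT boxes and none of the other 7 motifs. The second P2rx7 window, not printed, holds 1 PU.1 element and no other motif. The second Entpd1 window, not printed, holds 1 CCAAT box and 1 cAMP response half-element. That of P2ry2 holds the same motifs as its first. Of all 32851 RefSeq promoter windows of this length, 35.7% hold the GC box, 37.4% the CCAAT box, 13.6% the TATA box, 7.81% the AP-1 element, 7.15% the E-box, 8.86% the ETS element, 9.35% the PU.1 element and 7.51% the cAMP response half-element. The 3 genes of this group that rose and are printed here thus share no single motif. A match describes these letters and is not a measured binding site.

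Of the 2 ATP-gated channels, P2rx7 was far higher in KO and P2rx4 was not called. P2rx7 (ENSMUSG00000029468.17, mm10 chromosome 5, 122643911 to 122691432, plus strand, protein-coding) encodes a channel that opens at high ATP and triggers the loss of potassium that activates the NLRP3 inflammasome. It stood at 146, 146 and 160.1 CPM in KO replicates 1 to 3, against 40.4, 42.7 and 40.2 CPM in WT replicates 1 to 3. The lowest KO library lay far above the highest WT library. The means were 150.4 ± 8.34 CPM in KO and 41.1 ± 1.37 CPM in WT (SD, n = 3 each), a log2 fold change of 1.86 ± 0.07 (limma adjusted p = 1.19e-06), higher in 3 of 3 KO libraries. Between 8708 and 10667 reads in KO and 2040 and 2876 reads in WT stood behind these values. P2rx7 ranked 117th of the 10614 tested genes by the size of its log2 fold change. The microRNA gene Mir8115 lies within it on the same strand, covers 0.250% of its span and is listed at 0.

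P2rx4 (ENSMUSG00000029470.15, chromosome 5, 122707544 to 122729738, plus strand) encodes the other P2X channel of macrophages, which responds to lower ATP and resides largely in lysosomes. Its level was 27.9, 28.8 and 26.4 CPM in KO replicates 1 to 3 and 28.6, 29.2 and 28.7 CPM in WT replicates 1 to 3. The groups overlapped. The log2 fold change was -0.06 ± 0.07, with a 95% interval of -0.21 to 0.10 (limma adjusted p = 0.558), which as a ratio runs from 0.863 to 1.07. A change as large as that of P2rx7 lies outside this interval, though equal levels are not shown. The 2 genes lie 16.1 kb apart on the same strand. Per kilobase of exon, P2rx7 stood at 6.41 ± 0.625 times the level of P2rx4 in KO and at 1.68 ± 0.0362 times in WT (SD, n = 3 each), with 5.96 as the lowest KO ratio and 1.72 as the highest WT ratio. The log2 of this ratio was 1.93 higher in KO. Permuting the libraries, an exact test (two-sided) returned p = 0.1 for it, which is as low as 3 against 3 can go. The ratio holds the same P2rx7 values as above, so this test adds no separate evidence.

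**Figure D1:**
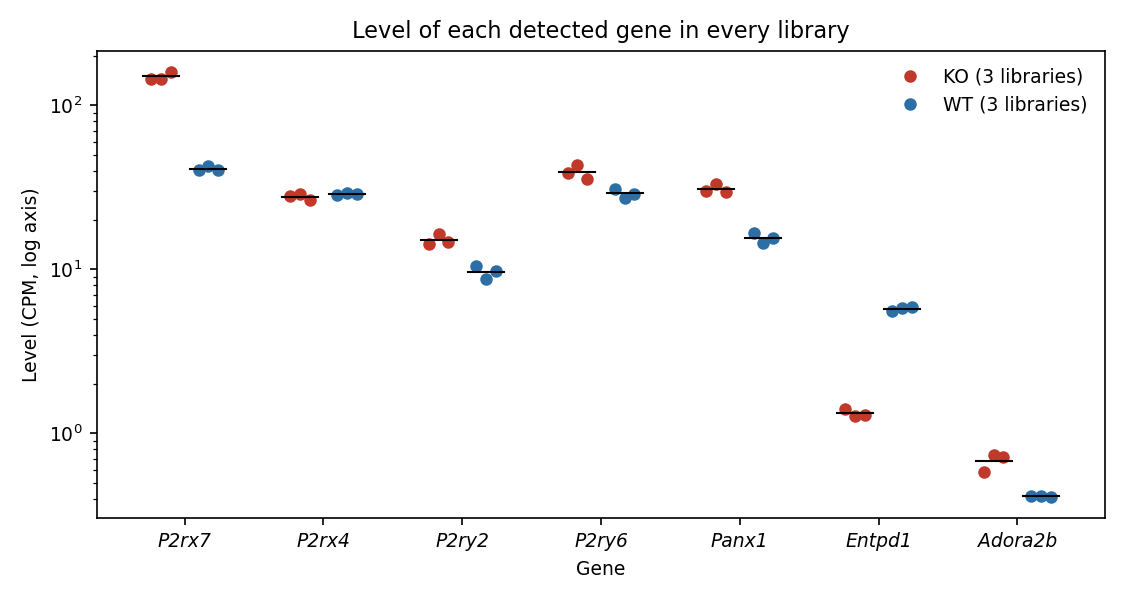
Level of the 7 detected genes in every library, in CPM on a log axis; each point is 1 library, KO in red to the left of WT in blue, and black lines are group means. The groups do not overlap for any gene but P2rx4, with P2rx7 at 146 to 160.1 CPM in KO and 40.2 to 42.7 CPM in WT.

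Among the P2Y receptors, the ATP and UTP receptor and the UDP receptor were both higher in KO. P2ry2 (ENSMUSG00000032860.5, chromosome 7, 100996568 to 101012866, minus strand) encodes a receptor for ATP and UTP that couples to Gq and, on phagocytes, senses nucleotides released by dying cells. It had 14.3, 16.5 and 14.6 CPM in KO replicates 1 to 3, against 10.4, 8.75 and 9.83 CPM in WT replicates 1 to 3. All KO values lay above all WT values. The means were 15.1 ± 1.15 CPM in KO and 9.67 ± 0.852 CPM in WT (SD, n = 3 each), a log2 fold change of 0.62 ± 0.10 (limma adjusted p = 0.00231).

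P2ry6 (ENSMUSG00000048779.5, chromosome 7, 100937630 to 100974649, minus strand) encodes the UDP receptor, known in microglia for promoting phagocytosis. Its level was 38.5, 43.3 and 35.5 CPM in KO replicates 1 to 3 and 31.1, 27.2 and 28.9 CPM in WT replicates 1 to 3. The groups did not overlap, but the lowest KO library came near the highest WT library. The means were 39.1 ± 3.96 CPM in KO and 29.1 ± 1.96 CPM in WT (SD, n = 3 each), a log2 fold change of 0.42 ± 0.09 (limma adjusted p = 0.0119). This was the smallest of the 5 called changes, and its KO spread, a coefficient of variation of 10.1%, was the widest among the 6 tested genes (median of all tested genes 6.05% in KO). The gene Gm44545, annotated on the opposite strand and not analysed here, covers 2.02% of the span of P2ry6. The sources used here do not say whether counting used strand.

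P2ry2 and P2ry6 lie 21.9 kb apart on the same strand, and both rose, P2ry2 by 0.62 and P2ry6 by 0.42 on the log2 scale. Per kilobase of exon P2ry6 stood at 3.51 ± 0.187 times the level of P2ry2 in KO and at 4.09 ± 0.117 times in WT (SD, n = 3 each). The ratio was lower in 3 of 3 KO libraries, with p = 0.1 by the same exact permutation test.

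P2ry12 (ENSMUSG00000036353.13, chromosome 3, 59216272 to 59262871, minus strand) and P2ry14 (ENSMUSG00000036381.13, chromosome 3, 59113855 to 59153618, minus strand) encode receptors for ADP and for UDP-glucose that couple to Gi. P2ry12 is used as a marker of microglia and is the ADP receptor of platelets. Both are listed at 0 in all 6 libraries, where 3 reads would be 0.0426 to 0.0594 CPM. A listing at 0 does not settle the level in this table: B2m, which nearly all cells express, is listed at 0 as well. Both genes lie wholly within the span of Med12l, a Mediator subunit gene on the opposite strand, which stood at 0.284 to 1.13 CPM. Of 592 protein-coding genes that lie inside the span of another protein-coding gene, 69.8% are listed at 0, against 23.0% of the other 20009. These sets were not matched for expression, and whether the placement bears on the listing of P2ry12 and P2ry14 was not tested. P2ry13, another receptor gene of the same cluster, is listed at 0 too.

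Of the adenosine receptors, Adora2b was detected and Adora2a was at the limit of detection. Both couple to Gs and raise cyclic AMP, and the Adora2b product needs more adenosine than that of Adora2a to respond. Adora2b (ENSMUSG00000018500.2, chromosome 11, 62248984 to 62266453, plus strand) had 41, 44 and 48 reads in KO replicates 1 to 3, against 21, 28 and 24 reads in WT replicates 1 to 3. As CPM these were 0.582, 0.736 and 0.720 in KO and 0.416, 0.415 and 0.411 in WT, without overlap. The mean was 1.64-fold higher in KO, with p = 0.1 by the exact permutation test, its lowest possible value. Counting alone gives an error of 14.4% to 15.6% per KO library and 18.9% to 21.8% per WT library, so the closeness of the WT values is tighter than their reads can resolve. With the minimum lowered to 0.2 CPM the log2 fold change was 0.37 (limma adjusted p = 0.0233), and with no minimum it was 0.37 (limma adjusted p = 0.0126). Adora2a (ENSMUSG00000020178.6, chromosome 10, 75316877 to 75334784, plus strand) had 1 read in KO replicate 2 and 0 in the other 5 libraries, below the 3 reads that a count of 0 allows.

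The gene of an ATP release channel, Panx1, rose, and that of an ATP-degrading enzyme, Entpd1, fell. Panx1 (ENSMUSG00000031934.14, chromosome 9, 15002128 to 15045478, minus strand) encodes the channel through which ATP leaves the cell, opened by caspase cleavage in dying cells. It stood at 30.2, 33.1 and 29.6 CPM in KO replicates 1 to 3, against 16.6, 14.5 and 15.4 CPM in WT replicates 1 to 3. No library of one group came near the other. The means were 31.0 ± 1.88 CPM in KO and 15.5 ± 1.04 CPM in WT (SD, n = 3 each), a log2 fold change of 0.98 ± 0.08 (limma adjusted p = 0.000110).

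Entpd1 (ENSMUSG00000048120.16, chromosome 19, 40612366 to 40741602, plus strand) encodes CD39, the surface enzyme that takes ATP and ADP to AMP. Its level was 1.41, 1.27 and 1.29 CPM in KO replicates 1 to 3 and 5.57, 5.80 and 5.91 CPM in WT replicates 1 to 3. The KO libraries sat just above the minimum of 1 CPM with 76 to 99 reads each, and the WT libraries held 281 to 391 reads. The means were 1.32 ± 0.0728 CPM in KO and 5.76 ± 0.175 CPM in WT (SD, n = 3 each), a log2 fold change of -1.78 ± 0.09 (limma adjusted p = 7.16e-06), lower in 3 of 3 KO libraries. Entpd1 ranked 131st of the tested genes by the size of this change. A sense-intronic transcript and 2 processed pseudogenes annotated within its span were not analysed here. Per kilobase of exon, Panx1 stood at 21.7 ± 2.17 times the level of Entpd1 in KO and at 2.49 ± 0.231 times in WT (SD, n = 3 each).

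**Figure D2:**
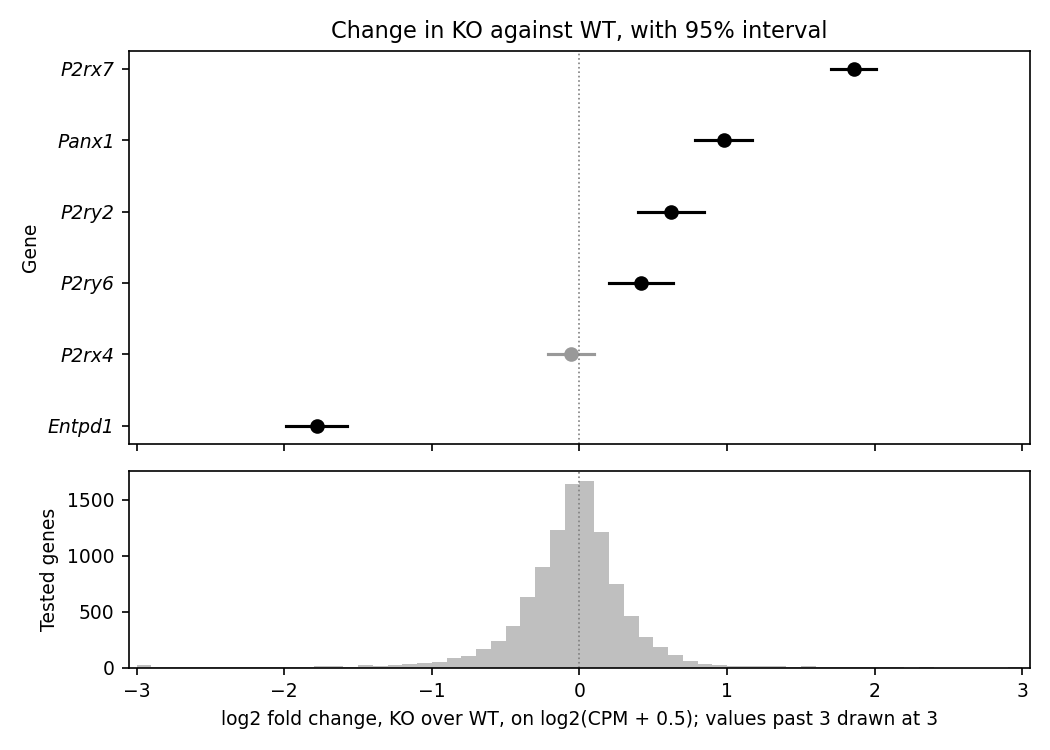
Log2 fold change, KO over WT, of the 6 tested genes (upper panel; points are estimates, bars 95% intervals, grey for the gene not called) above the distribution of all 10614 tested genes (lower panel). P2rx7 at 1.86 and Entpd1 at -1.78 lie in the tails, and the interval of P2rx4 spans 0.

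Scaled to exon length, the 7 detected genes stood in a different order in the genotypes, with P2rx7 first in KO and P2ry6 first in WT. In KO, P2rx7 led at 25.2 ± 1.40 CPM per kilobase of exon, followed by P2ry6 at 13.5 ± 1.37 and Panx1 at 5.14 ± 0.312. P2rx4 at 3.94 ± 0.167 and P2ry2 at 3.86 ± 0.293 CPM per kilobase overlapped between libraries. Adora2b at 0.368 ± 0.0459 and Entpd1 at 0.237 ± 0.0130 CPM per kilobase came last in KO, without overlap. In WT, P2ry6 led at 10.1 ± 0.680 CPM per kilobase and P2rx7 came next at 6.88 ± 0.230, then P2rx4 at 4.10 ± 0.0495. Panx1 at 2.57 ± 0.172 and P2ry2 at 2.46 ± 0.217 CPM per kilobase overlapped in WT. Entpd1 at 1.03 ± 0.0314 CPM per kilobase stood above Adora2b at 0.224 ± 0.00150 in WT. Exon lengths are unions over all annotated transcripts, and which of them these cells use was not measured.

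**Figure D3:**
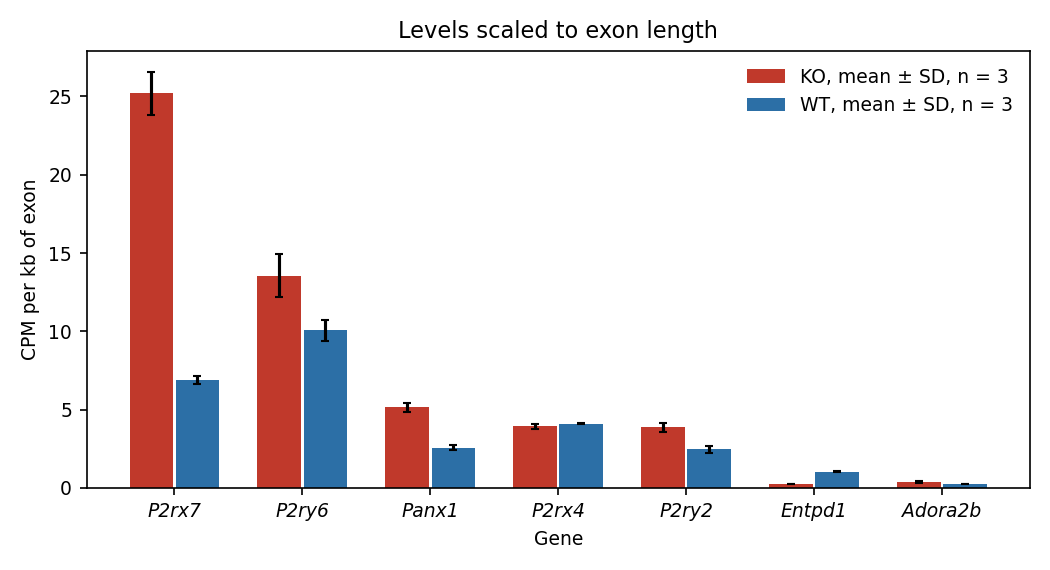
Level per kilobase of exon (bars, mean; error bars, SD over 3 libraries), KO in red to the left of WT in blue, on a linear axis. P2rx7 is the highest of the 7 genes in KO at 25.2 CPM per kilobase, and P2ry6 the highest in WT at 10.1.

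Of the 6 tested genes, 5 had KO and WT values without overlap, as had 46.4% of all tested genes. The median log2 fold change of the 6 tested genes was 0.52 and that of all tested genes -0.02. On the chromosomes that carry the 10 genes the medians ran from -0.06 to -0.02, and none of the 10 lies on chromosome 2 or 6, where the medians were 0.34 and -0.16.

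Besides the genes of this group, 28 listed genes lie within 100 kb of at least 1 of them; 16 were tested, of which 1 rose, 1 fell and 14 were not called, with a median log2 fold change of -0.09, where 30.4% of all tested genes were called. Around P2rx7, the calcium-dependent kinase gene Camkk2 (39.7 kb away) had a log2 fold change of -0.02 (limma adjusted p = 0.825). On its other side Ift81, a gene of ciliary transport (29.4 kb away), fell to 10.1 ± 0.629 CPM in KO, against 13.6 ± 1.62 CPM in WT (log2 fold change -0.41, limma adjusted p = 0.0199). In 4 of 18 alternative settings Ift81 missed the threshold, including those without KO replicate 1 (limma adjusted p = 0.0706), KO replicate 2 (0.0791) or WT replicate 3 (0.0506). The start of Entpd1 lies 0.133 kb from the oppositely transcribed Tctn3, a gene of the ciliary base, which had 11.8 ± 0.898 CPM in KO and 12.9 ± 1.27 CPM in WT (log2 fold change -0.12, limma adjusted p = 0.396). Next to P2ry2, Fchsd2 (80.0 kb away) had a log2 fold change of -0.20 (limma adjusted p = 0.143). Near Entpd1 on its other side, Ccnj (89.7 kb away) had a log2 fold change of -0.30 (limma adjusted p = 0.139). Beside Adora2b, Zswim7 (0.771 kb away) had a log2 fold change of 0.17 (limma adjusted p = 0.144) and Specc1 (26.0 kb away) one of -0.03 (limma adjusted p = 0.730). Beside Adora2a, Specc1l (4.13 kb away) had a log2 fold change of -0.23 (limma adjusted p = 0.0714) and Gucd1 (16.3 kb away) one of -0.23 (limma adjusted p = 0.107). No tested gene lay within 100 kb of Panx1. The neighbour that rose was Relt, a receptor gene of the TNF receptor family 74.2 kb from P2ry6, at the edge of the threshold (log2 fold change 0.24, limma adjusted p = 0.0499), and its call was lost under 11 of 19 settings (adjusted p up to 0.202).

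**Figure D4:**
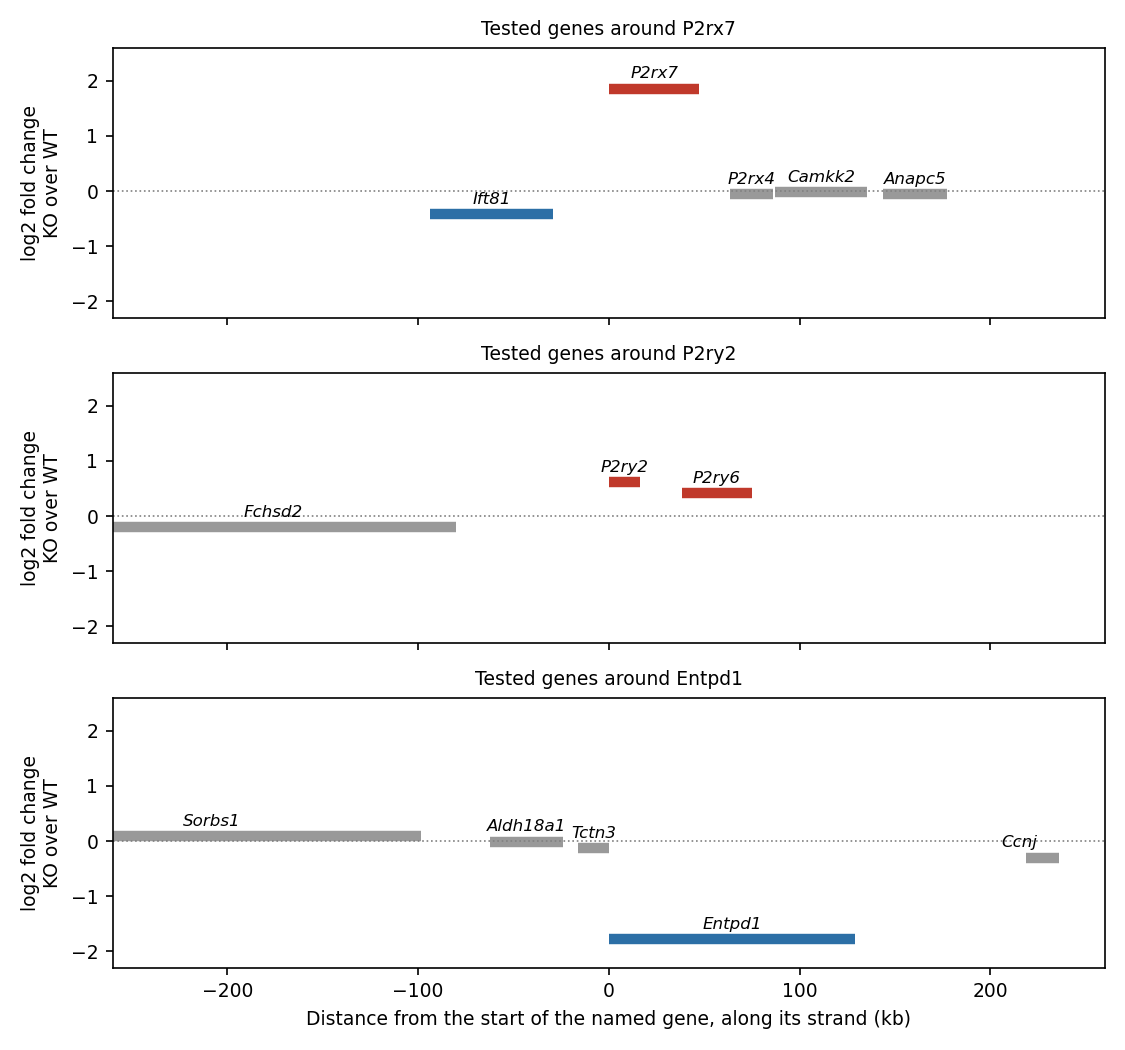
Log2 fold change, KO over WT, of tested genes within 100 kb of P2rx7, P2ry2 and Entpd1, against distance in kb from the start of each along its strand; bars span each gene up to 260 kb, red called higher, blue called lower, grey not called. P2rx7 stands at 1.86 beside P2rx4 at -0.06, and Entpd1 at -1.78 beside Tctn3 at -0.12.

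The libraries were searched for the tested genes whose profile over the 6 libraries, centred on the log2(CPM + 0.5) scale, lay nearest to P2rx7 and to Entpd1 by Euclidean distance. Nearest to P2rx7 were Neo1, which encodes the netrin and repulsive guidance receptor neogenin (distance 0.139), the semaphorin gene Sema3e (0.143) and the dehydrogenase gene Dhrs9 (0.173). Neo1 had 135 ± 9.19 CPM in KO and 39.6 ± 0.961 CPM in WT. Sema3e had 3.51 ± 0.316 CPM in KO and 0.623 ± 0.0930 CPM in WT, so near the pseudocount that its likeness to P2rx7 depends on that value. Dhrs9 had 59.5 ± 4.28 CPM in KO and 15.3 ± 0.525 CPM in WT. Nearest to Entpd1 were Epop (0.117), Amy1 (0.119), which shares sequence with other amylase genes, and Dpp6 (0.124). These 3 lay at 1.18 to 1.33 CPM in WT and at 0 to 0.0504 CPM in KO, so their likeness to Entpd1 on this scale rests on the pseudocount. With 2 groups of 3 libraries, such distances mainly compare the sizes of the group differences.

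The rest of the pathway was read from 6 lists of 81 genes in all, of which 51 were tested. Of these, 9 rose, 11 fell and 31 were not called. The share called over all tested genes, 30.4% (13.5% higher and 16.9% lower), is the background for this count and for each list below. None of the 11 other P2X, P2Y and adenosine receptor genes reached the minimum for testing, and 4 of them, among them Adora1 and Adora3, are listed at 0. P2ry1, which encodes an ADP receptor coupled to Gq, was singled out after its values were seen: it had 0 reads in each KO library, against 17 to 24 reads in each WT library. Set against a floor of 3 reads per library, it was at least 8.01-fold lower in KO. P2rx5 ranged from 19 to 38 reads in KO and from 23 to 40 reads in WT, and overlapped.

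Among 14 genes of nucleotide breakdown, 5 were tested; 2 rose and 3 were not called, with a median log2 fold change of -0.00. Bst1, which encodes a surface enzyme that cleaves NAD, had 13.03 ± 0.575 CPM in KO and 5.57 ± 0.331 CPM in WT (log2 fold change 1.16, limma adjusted p = 5.03e-05). Entpd6, an intracellular and secreted relative of CD39, had 43.7 ± 2.06 CPM in KO and 33.8 ± 1.34 CPM in WT (log2 fold change 0.36, limma adjusted p = 0.00627). Nt5e, the gene of CD73, which makes adenosine from AMP, had at most 2 reads in a KO library and 3 in a WT library. Entpd2, Entpd8 and Entpd4, which has a near-identical copy in the mouse genome, are listed at 0.

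Of 7 genes that remove adenosine, 6 were tested; 2 rose and 4 were not called, with a median log2 fold change of 0.20. Slc28a2, a sodium-coupled nucleoside carrier, had 11.96 ± 0.423 CPM in KO and 1.91 ± 0.432 CPM in WT (log2 fold change 2.38, limma adjusted p = 1.23e-05). Ada, adenosine deaminase, had 48.6 ± 2.88 CPM in KO and 39.999 ± 2.59 CPM in WT (log2 fold change 0.28, limma adjusted p = 0.0297), a call that was lost under 6 of 19 alternative settings (adjusted p up to 0.112), among them without KO replicate 1 or 2 or WT replicate 2 or 3. Adk, adenosine kinase, was at 87.6 ± 1.13 CPM in KO and 86.2 ± 3.49 CPM in WT and was not called.

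Among 11 other genes of ATP release 5 were tested; 1 rose, 1 fell and 3 were not called, with a median log2 fold change of -0.14. The pannexin genes Panx2 and Panx3 stayed under the minimum, with at most 7 reads in a library, as did the vesicular nucleotide carrier Slc17a9, with 23 to 41 reads in KO and 27 to 63 reads in WT. Lrrc8a, the obligate subunit of the volume-regulated anion channel, had 38.5 ± 1.98 CPM in KO and 26.8 ± 1.83 CPM in WT (log2 fold change 0.51, limma adjusted p = 0.00218). Lrrc8c, another subunit, had 9.02 ± 0.276 CPM in KO and 12.01 ± 0.630 CPM in WT (log2 fold change -0.39, limma adjusted p = 0.00780).

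Genes that act after P2X7 opens went both ways: of 12, 10 were tested, 2 rose, 3 fell and 5 were not called, with a median log2 fold change of -0.04. Nlrp3, the inflammasome sensor, fell to 81.2 ± 4.93 CPM in KO, against 109.9 ± 3.58 CPM in WT (log2 fold change -0.44, limma adjusted p = 0.00226). Il18, a cytokine gene whose product caspase-1 matures, fell to 2.38 ± 0.309 CPM in KO, against 5.73 ± 0.699 CPM in WT (log2 fold change -1.11, limma adjusted p = 0.000486). Pycard, which encodes the adaptor ASC that RAW 264.7 cells are known to lack, had 0 to 3 reads in either genotype, and Il1b stayed under the minimum. Adam10, a sheddase, fell to 310.4 ± 13.9 CPM in KO, against 566 ± 93.7 CPM in WT (log2 fold change -0.85, limma adjusted p = 0.00137). Pla2g4a, a phospholipase that frees arachidonic acid, had 457 ± 11.3 CPM in KO and 373 ± 36.8 CPM in WT (log2 fold change 0.29, limma adjusted p = 0.0287), and its call was lost under 6 of 18 settings (adjusted p up to 0.0996), among them without any 1 of the KO replicates or WT replicate 3.

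The last list holds G proteins and effectors through which P2Y and adenosine receptors signal. Its genes Adcy6 and Plcb1 had the largest log2 fold changes of the tested list genes, at -3.66 and -2.71. Of 26 genes 25 were tested; 2 rose, 7 fell and 16 were not called, with a median log2 fold change of -0.10. Adcy6, an adenylyl cyclase, fell to 3 to 6 reads per KO library, against 330 to 554 reads per WT library. Plcb1, a phospholipase C activated by Gq, fell to 0.518 ± 0.0468 CPM in KO, against 6.32 ± 1.70 CPM in WT. Both lay under 1 CPM in KO and reached the minimum through the WT libraries only. The size of their log2 fold changes varied with the setting, from -6.55 to -2.85 for Adcy6 and from -3.58 to -2.24 for Plcb1. Adcy7, another adenylyl cyclase, had 216 ± 15.6 CPM in KO and 216 ± 22.1 CPM in WT and was not called. Itpr2, an inositol trisphosphate receptor of the calcium store, had 53.2 ± 3.00 CPM in KO and 84.8 ± 5.66 CPM in WT (log2 fold change -0.67, limma adjusted p = 0.000481). Gna12, a G protein subunit, had 56.3 ± 2.87 CPM in KO and 78.4 ± 4.10 CPM in WT (log2 fold change -0.48, limma adjusted p = 0.00181). Gnaq, which encodes the Gq subunit, was among the 2 that rose. It had 214 ± 11.3 CPM in KO and 177 ± 15.1 CPM in WT (log2 fold change 0.28, limma adjusted p = 0.0338). Of the 9 pathway genes that rose, 4 lie on chromosome 2, namely Entpd6, Ada, Slc28a2 and Lrrc8a. On that chromosome 503 of 863 tested genes rose and 45 fell. Of the 11 pathway genes that fell, 2 lie on chromosome 6, where 155 of 520 tested genes fell and 30 rose.

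**Figure D5:**
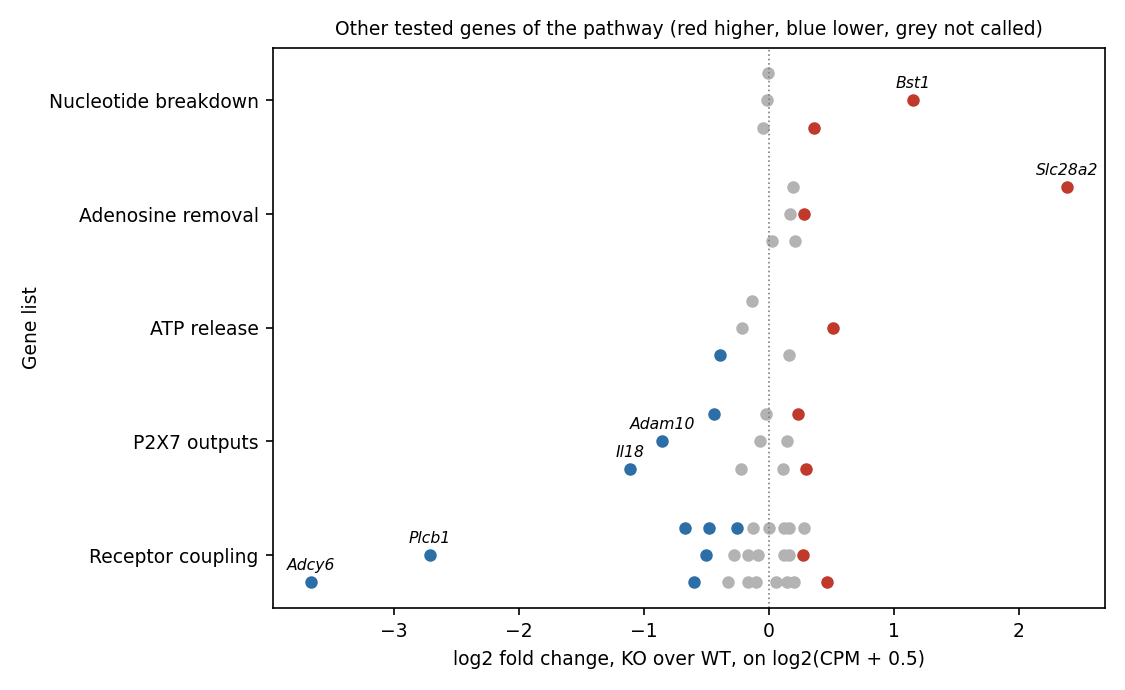
Log2 fold change, KO over WT, of the tested genes of 5 pathway lists (each point is 1 gene; red called higher, blue called lower, grey not called; vertical offsets within a list only separate points). Slc28a2 at 2.38 and Adcy6 at -3.66 are the extremes, and most genes of each list except P2X7 outputs are grey.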

How the data were processed

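The authors deposited gene levels as CPM (counts scaled to 1000000 reads assigned to genes), with duplicates removed per the file headers. The submitters' processing notes name STAR 2.6.0a, SAMtools, Picard, FastQC and Trim Galore, and the mm10 build. Which program counted reads, against which annotation and with which strand setting, is not given in those notes. Of all values, 100% were whole multiples of 1 read (tolerance 0.01 of a read), and whole reads were recovered from them. A read is worth 0.0142 to 0.0198 CPM; limits set by 3 reads cover counting error only.

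The test was limma (version 3.58.1, R 4.3.3; mean-variance trend, no covariates) on log2(CPM + 0.5) for genes reaching 1 CPM in 3 or more libraries, and the fit was tested on simulated data. The count tests called 3359 genes with edgeR 4.0.16 and 3758 with DESeq2 1.42.0, on recovered reads. Coordinates and exon lengths come from GENCODE M21 (mm10), which matched 24305 symbols directly and 121 by an older symbol. Exact permutation tests used scipy 1.17.1. No pair of libraries agreed within sampling noise (lowest chi-square per degree of freedom, 41.9).

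The genes and lists were chosen with earlier results of these data known. Named by rule were the 10 genes, up to 4 called genes per list by adjusted p, neighbours that overlap them or are the nearest tested within 100 kb, and 3 genes alike in profile. B2m, Adk, Adcy7, Gnaq, Il1b, Pycard, Nt5e, P2rx3, P2rx5, Panx2, Panx3, Slc17a9 and receptor genes listed at 0 were added after their values were seen.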

Additional observations from a re-analysis of the deposited data

How the results depend on the processing

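The 5 called genes kept their direction and call in every one of the 18 or 19 alternative settings that tested them: other pseudocounts, minimums and scalings, no trend, the count tests, the replicate block and leaving out each library. P2rx7 ranged from 1.81 to 1.90 on the log2 scale, Panx1 from 0.93 to 1.04, P2ry2 from 0.56 to 0.74, P2ry6 from 0.34 to 0.48 and Entpd1 from -2.09 to -1.51, with P2ry6 nearest to the threshold (adjusted p up to 0.0483, without KO replicate 1). P2rx4 stayed uncalled (-0.08 to -0.02).

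Without genes that overlap another gene, a setting that drops P2rx7, P2ry6 and Entpd1 from the test, P2ry2 and Panx1 were called, both higher. P2rx4 was again not called. In all, 1509 of 4625 tested genes were called (32.6%, against 30.4% with overlapping genes kept). The pathway lists lose genes in this setting too, and 3 of their genes were called. The replicate block gave 2009 genes in all, 13 in the lists and 0 neighbours, and Lrrc8c missed the threshold (adjusted p = 0.0502). Same-numbered libraries did not deviate together (correlations -0.641 to -0.173). Each deviation was taken from its group's mean, so the correlations depend on one another. They cannot decide whether the numbers pair the libraries. Between differently numbered libraries the correlations ran from -0.438 (KO replicate 3, WT replicate 1) to 0.614 (KO replicate 3, WT replicate 2). KO replicate 2 and WT replicate 1 gave 0.579. What such libraries share was not tested. Leaving out a library gave 1973 to 3761 genes, 13 to 28 in the lists and 0 to 2 neighbours. The neighbour count was 1 at pseudocount 0.1, at minimums of 0.2 and 5 CPM, with no filter, without Rn45s and without overlapping genes, and 4 after quantile normalization. Of all called genes 44.5% were higher in KO, and this share was 49.1% with TMM scaling and 51.4% after quantile normalization, so the balance of higher and lower calls turns with the scaling. Depth limits the genes with few reads, Adora2b and Entpd1 in KO among them.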
